A study of Mus musculus with 6 samples.

Results

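Glycogen metabolism was examined through 9 genes in the lens of newborn mice. They are the glycogen phosphorylases Pygl, Pygb and Pygm, the phosphorylase kinase subunits Phka1 and Phkg1, the glycogen synthase Gys1, the branching enzyme Gbe1, the primer protein glycogenin Gyg, and Ugp2, which makes the sugar nucleotide used for synthesis. The set was chosen by the log2 levels of Pygl, which were lower on the mutant arrays, and the other 8 genes were named with it to ask whether they followed. All probe sets annotated to a single one of these symbols were taken, 17 of the 22626 tested, and they cover 9 of the 12393 genes with a probe set of their own.

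The mutant group was 3 samples of lens RNA from newborn Le-AP-2alpha conditional mutants, in which Tfap2a (older symbol Tcfap2a), the gene of the transcription factor AP-2alpha, is targeted. The other group was 3 samples of lens RNA from newborn wild-type littermates. Each sample was amplified, labelled with biotin and hybridised to a single-colour oligonucleotide array. In work on the lens, Le names a Cre transgene driven by Pax6 regulatory sequence, active in the surface ectoderm that forms the lens, cornea and eyelids. The labels give no strain, sex or further allele, do not say whether wild types carried the transgene, and do not say whether a sample was a single animal or a pool. The p-values therefore measure the spread between these samples, which may be technical.

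Glycogen is a branched store of glucose. Glycogenin starts the chain, glycogen synthase extends it from UDP-glucose, and the branching enzyme adds branch points. Glycogen phosphorylase removes glucose units as glucose 1-phosphate. It has liver, brain and muscle isozymes, encoded by Pygl, Pygb and Pygm, and is switched on when phosphorylase kinase phosphorylates it. The mature lens has no blood vessels and depends largely on glycolysis.

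Levels are log2 of the deposited intensity of a probe set, and a gene is given by its brightest probe set, the one of highest mean over the 6 arrays, unless another is named. Levels of different probe sets are not compared with each other, because probes differ in how strongly they bind. A probe set is called dim where its mean is below 5.26, the median of all probe sets. Differences come from a limma fit across all probe sets, as mutant minus wild type, and their error is the fitted standard error (SE). No detection calls were used here.

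Over the whole array 0 of 22626 probe sets passed a limma adjusted p of 0.05, and 742 (3.28%) had an unadjusted p under 0.05. Array medians ran from 5.19 to 5.32. The array of wild-type replicate 1 was unlike the rest: its Pearson correlations with them were 0.926 to 0.945, and those among the remaining 5 were 0.974 to 0.985. Its difference between the 3′ and 5′ probe sets of Gapdh, a sign of RNA integrity, was 1.07 on the log2 scale, inside the range of 0.73 to 1.39 of the others. All 7 measured lens fibre markers were brighter than the median probe set. Tfap2a itself was at 9.57, 9.64 and 9.83 in the mutants and at 8.36, 9.26 and 9.56 in the wild types. Its signal was not lower in mutants, and each mutant lay above every wild type, by a thin gap. Since the position of the probes relative to the deletion is not known here, the signal does not check the labels.

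Pygl, the liver isozyme of glycogen phosphorylase, had low values in all 3 mutant samples. Its intensity was 34.4, 34.2 and 42.9 in the mutants and 188.1, 144.8 and 186.2 in the wild types. On the log2 scale these are 5.11, 5.10 and 5.42 in the mutants, against 7.56, 7.18 and 7.54 in the wild types. The groups did not overlap, and the gap between the highest mutant and the lowest wild type was wider than the range within either group. The mutant mean was 5.21 ± 0.19 and the wild-type mean 7.42 ± 0.21 (SD, n = 3 each), a log2 difference of -2.22 ± 0.20 (SE), or 4.65-fold lower in mutants. These values chose the gene, so they are given as a description with no test. The array holds a single probe set for Pygl, so no second probe set bears on the value. In bulk RNA, fewer cells that express a gene and less RNA per cell cannot be told apart.

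Without wild-type replicate 1 the difference of Pygl was -2.15 ± 0.22 (SE). Leaving out each array in turn gave differences between -2.34 and -2.15. Wild-type replicate 1 had the highest Pygl value of the 6 arrays, but it lay beside wild-type replicate 3, at 7.56 and 7.54.

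Because the targeted factor AP-2alpha binds GC-rich DNA, the stretch before the start of each phosphorylase gene is shown, credited to RefSeq with the build GRCm38.p6. The AP-2 family is known to bind sites of the forms GCCNNNGGC and GCCNNNNGGC, each of which reads the same on both strands. The 250 bases upstream of the annotated start are Pygl at chr12:70227684-70227933 on the minus strand, Pygb at chr2:150786546-150786795 on the plus strand and Pygm at chr19:6384158-6384407 on the plus strand. They are written 5′ to 3′, with matches to either form in capitals.
Pygl: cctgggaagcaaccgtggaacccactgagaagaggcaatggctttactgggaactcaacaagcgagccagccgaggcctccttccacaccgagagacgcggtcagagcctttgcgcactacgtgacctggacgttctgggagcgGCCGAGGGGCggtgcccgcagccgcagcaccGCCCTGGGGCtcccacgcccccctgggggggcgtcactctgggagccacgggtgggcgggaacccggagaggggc
Pygb: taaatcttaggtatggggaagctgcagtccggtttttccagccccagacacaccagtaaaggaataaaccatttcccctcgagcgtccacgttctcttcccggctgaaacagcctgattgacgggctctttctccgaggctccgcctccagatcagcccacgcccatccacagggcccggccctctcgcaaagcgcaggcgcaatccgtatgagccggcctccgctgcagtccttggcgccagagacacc
Pygm: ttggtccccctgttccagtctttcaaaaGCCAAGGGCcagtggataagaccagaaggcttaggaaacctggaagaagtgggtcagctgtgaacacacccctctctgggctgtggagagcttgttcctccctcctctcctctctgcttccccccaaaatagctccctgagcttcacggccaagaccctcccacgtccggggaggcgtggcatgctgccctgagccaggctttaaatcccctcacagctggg
The Pygl window holds 2 matches, GCCGAGGGGC beginning 106 bases before the start and GCCCTGGGGC beginning 75 bases before it, both of the form GCCNNNNGGC and not overlapping. The Pygb window holds 0 matches, and the Pygm window holds 1 of the form GCCNNNGGC, GCCAAGGGC, beginning 222 bases before the start. Of all 32851 such windows, 12.3% hold GCCNNNNGGC, 13.7% hold GCCNNNGGC and 23.0% hold either, and 1.78% hold GCCNNNNGGC more than once. Gys1 also holds that form 2 times, beginning 24 and 13 bases before its start. All 9 genes had a window, and 7 of them had a match to either form, Gys1, Gyg, Ugp2, Phka1 and Phkg1 beside Pygl and Pygm. Counted by window, as in the shares above, it was 7 of 10, since Ugp2 had more than 1 window. The shares over all windows were not matched for GC content. A match is a run of letters and not a measured site, and these data hold no measure of binding.

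**Figure D1:**
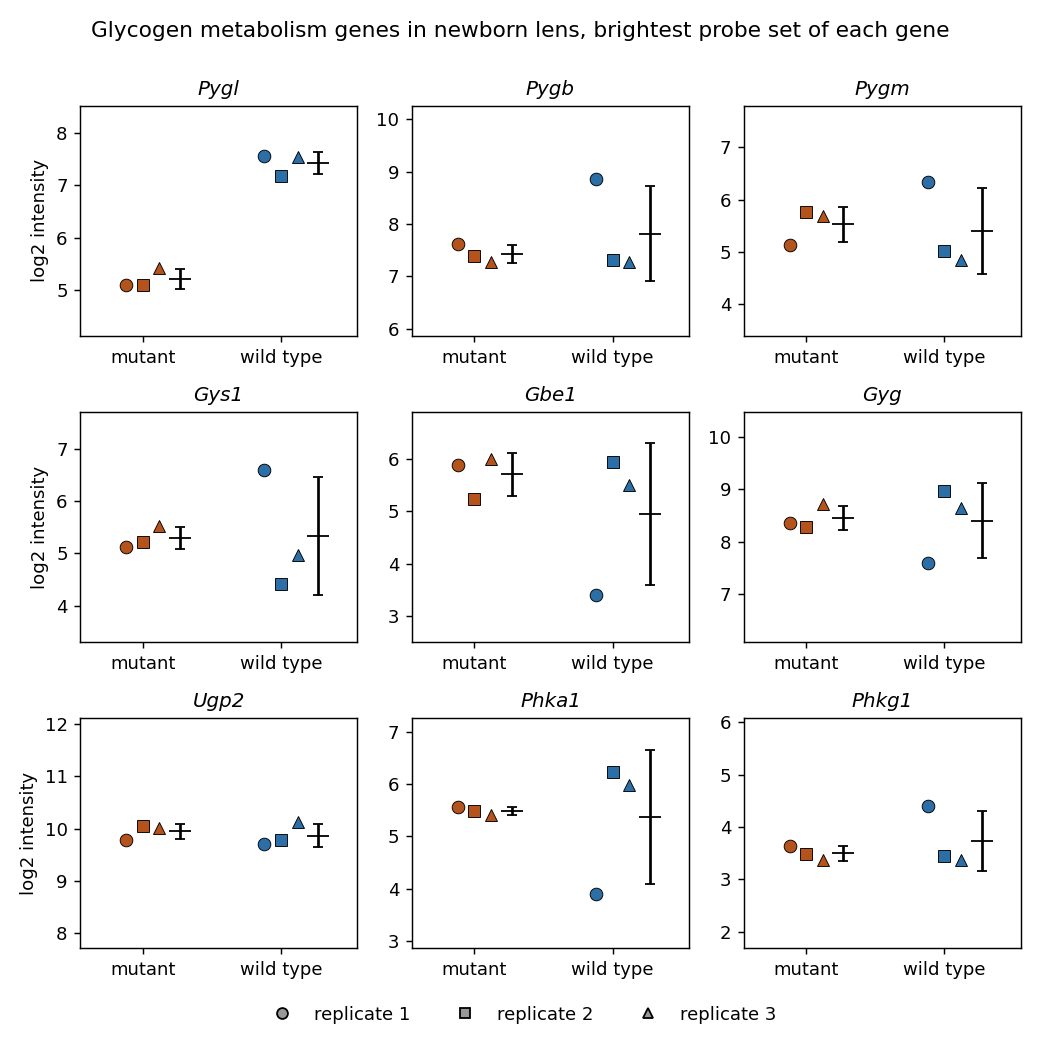
Log2 intensity of the brightest probe set of each of the 9 genes on the 6 arrays, with mutants left and wild types right; symbols mark the replicate number, and the bar beside each group is its mean with SD (n = 3). All panels span the same number of log2 units. Pygl separates the groups, at 5.10 to 5.42 in mutants and 7.18 to 7.56 in wild types, whereas in most other panels wild-type replicate 1 (circle, right) is the array that stands apart.

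The other phosphorylase isozymes were not lower across the mutant arrays. Pygb, the brain isozyme, was at 7.62, 7.39 and 7.27 in the mutants and at 8.86, 7.32 and 7.26 in the wild types. The mutants lay within the range of the wild types, which the high value of wild-type replicate 1 widened. Mutant replicate 3 lay between wild-type replicates 2 and 3, and mutant replicates 1 and 2 lay above both. The difference was -0.39 ± 0.45 (SE), with a 95% confidence interval of -1.46 to 0.68 and a limma adjusted p of 0.999. Without wild-type replicate 1 it was 0.13 ± 0.20, with an interval of -0.34 to 0.61.

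Pygm, the muscle isozyme, was at 5.14, 5.76 and 5.68 in the mutants and at 6.34, 5.02 and 4.86 in the wild types. Wild-type replicate 1 again had the highest value, and the other wild types had the lowest. The difference was 0.12 ± 0.43 (SE), with an interval of -0.91 to 1.15 and a limma adjusted p of 0.999. Without wild-type replicate 1 each mutant was above both remaining wild types, by 0.59 ± 0.25 on average, and the limma adjusted p was 0.917. Whether Pygl differed more than Pygb or Pygm was not tested, since the difference of Pygl chose the set.

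Skeletal muscle and liver were looked for, as tissues known for the Pygm and Pygl isozymes. All 10 muscle markers were dim, among them Atp2a1, the member of lowest p, and the defining markers Ckm and Acta1, with summed intensities of 85.7 to 94.0 in mutants and 90.7 to 122.7 in wild types. All 8 measured liver markers, Apoa1 (the member of lowest p) and Alb among them, were dim as well, with sums of 62.8 to 80.0 in mutants and 70.4 to 83.6 in wild types. Single values of both lists lay between 2.27 and 4.49 on the log2 scale. By mean, 8 muscle markers were lower and 2 higher in mutants, and 6 liver markers were lower and 2 higher. The median differences were -0.12 and -0.08, and -0.0043 and 0.002 without wild-type replicate 1. The groups did not overlap for 1 marker of each list, mutants being lower, against 8.8% of all genes. The muscle one was Atp2a1, at -0.70 ± 0.34 (SE). The part of either tissue in the value of Pygl was not tested.

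Phosphorylase kinase, which phosphorylates and activates glycogen phosphorylase, was represented by its muscle-type alpha subunit Phka1, a regulatory subunit, and its muscle-type catalytic gamma subunit Phkg1. The brightest Phka1 probe set was at 5.56, 5.49 and 5.41 in the mutants and at 3.899, 6.23 and 5.99 in the wild types. The mutants lay close together, below wild-type replicates 2 and 3 and above wild-type replicate 1. The difference was 0.12 ± 0.60 (SE; limma adjusted p 0.999), and -0.62 ± 0.19 without wild-type replicate 1, with an interval of -1.08 to -0.17 and a limma adjusted p of 0.796.

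Phka1 had other probe sets, both dim. The probe set 1422743_at was at 4.79, 5.11 and 5.04 in the mutants and at 5.47, 5.35 and 5.23 in the wild types. Its groups did not overlap, mutants being lower, and wild-type replicate 1 lay close to the other wild types. The difference was -0.37 ± 0.18 (SE; limma adjusted p 0.999), and -0.32 ± 0.20 without wild-type replicate 1. The probe set 1422744_at was at 4.49, 4.46 and 4.49 in the mutants and at 3.57, 5.48 and 4.52 in the wild types, a difference of -0.04 ± 0.46, and -0.52 ± 0.30 without wild-type replicate 1. The probe sets of Phka1 thus disagreed on where wild-type replicate 1 lay, and all of them had a lower mutant mean once it was left out. None passed the threshold in either fit.

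Phkg1 was dim on all 6 arrays. Its brighter probe set was at 3.64, 3.49 and 3.36 in the mutants and at 4.40, 3.43 and 3.36 in the wild types, a difference of -0.23 ± 0.31 (SE; limma adjusted p 0.999). Only the value of wild-type replicate 1 was above the mutants. The other probe set differed by -0.08 ± 0.19. The brighter one carries the _x suffix, which marks probes that can bind related transcripts, so its signal may not be of Phkg1 alone.

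On the synthesis side, Gys1, the glycogen synthase of muscle and most other tissues, was at 5.12, 5.22 and 5.53 in the mutants and at 6.59, 4.43 and 4.96 in the wild types. The mutants lay between wild-type replicate 1 and the other wild types. The difference was -0.04 ± 0.54 (SE; limma adjusted p 0.999), and 0.60 ± 0.25 without wild-type replicate 1 (limma adjusted p 0.916). A second, dim Gys1 probe set differed by -0.09 ± 0.20. The mean levels of Gys1 and of the next gene, Gbe1, 5.31 and 5.33, were barely brighter than the median probe set.

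Gbe1, the branching enzyme, was at 5.88, 5.24 and 6.01 in the mutants and at 3.40, 5.95 and 5.50 in the wild types. Wild-type replicate 1 was far below the other 5 arrays, whose values overlapped between groups. The difference of 0.76 ± 0.66 (SE; limma adjusted p 0.999) was -0.02 ± 0.30 without it. Gyg, the glycogenin gene, was at 8.36, 8.28 and 8.71 in the mutants and at 7.59, 8.97 and 8.63 in the wild types, a difference of 0.05 ± 0.38, and -0.35 ± 0.23 without wild-type replicate 1.

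Ugp2, UDP-glucose pyrophosphorylase, had 5 probe sets. The brightest was at 9.78, 10.05 and 10.01 in the mutants and at 9.71, 9.78 and 10.12 in the wild types. The groups overlapped, and the difference was 0.08 ± 0.20 (SE), with an interval of -0.40 to 0.55. The 3 next brightest differed by 0.17 ± 0.21, 0.27 ± 0.30 and 0.23 ± 0.24, and by 0.01, -0.02 and 0.0037 without wild-type replicate 1. The dimmest of the 5, 1426460_a_at, was at 5.61, 5.89 and 5.43 in the mutants and at 3.08, 6.64 and 6.14 in the wild types. It differed by 0.36 ± 0.89 with all arrays and by -0.74 ± 0.25 without wild-type replicate 1, with a limma adjusted p of 0.852. The probe sets of Ugp2 therefore gave unlike values without that array, the brighter 4 near 0 and the dimmest below it.

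**Figure D2:**
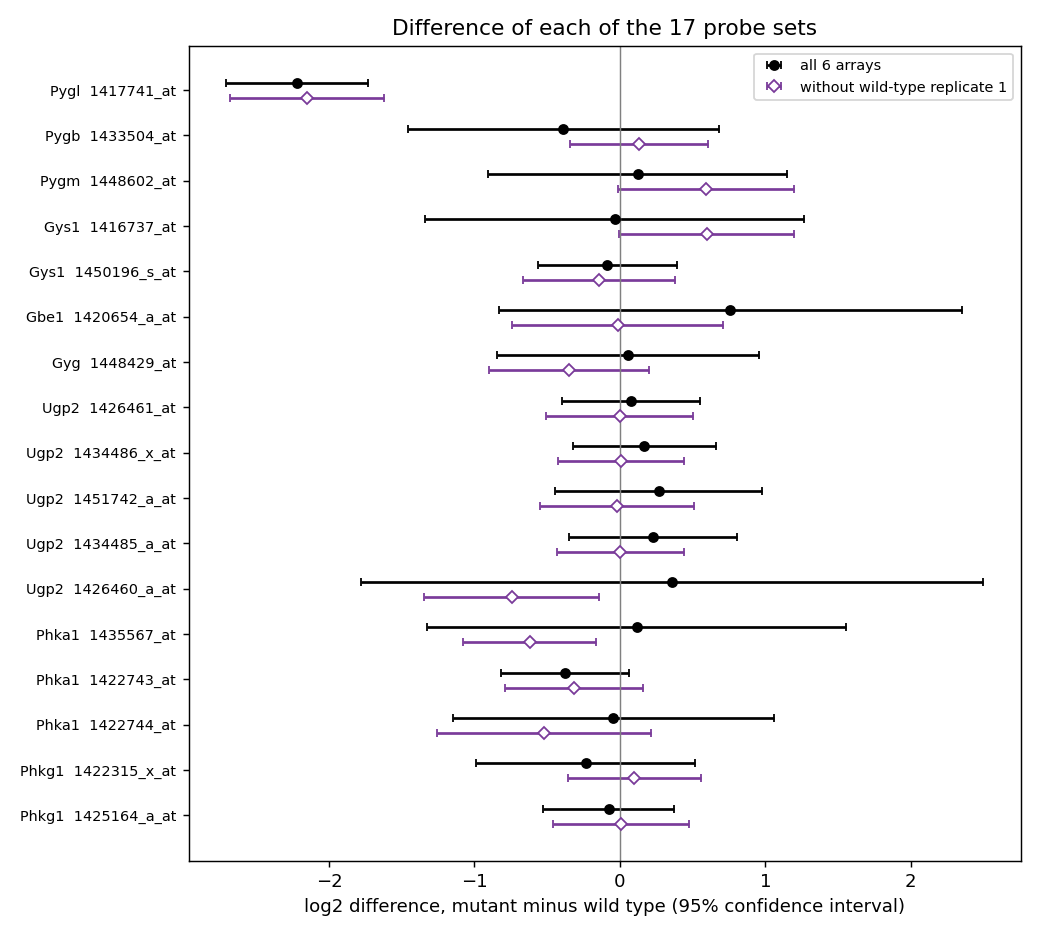
Log2 difference, mutant minus wild type, of each of the 17 probe sets with its 95% confidence interval from limma, with all 6 arrays (filled circles) and without wild-type replicate 1 (open diamonds). Pygl lies at -2.22 and -2.15, while the other 16 lie between -0.39 and 0.76 with all arrays. The intervals drawn for Pygl are a description and no test, because its difference chose the set.

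Read together, 5 of the 9 genes had a higher mutant mean and 4 a lower one, with a median difference of 0.05, against -0.01 over all genes. Without wild-type replicate 1 the counts were 4 higher and 5 lower and the median -4e-04. Over all genes 52.2% had a lower mutant mean, and 49.3% without that array. Of the 8 genes other than Pygl, 0 passed the limma adjusted p of 0.05, where the share over all probe sets was 0%, and 0 had an unadjusted p under 0.05, where the share over all genes was 3.85%. The groups did not overlap for Pygl, and for 0 of the other 8 by their brightest probe set, where the share over all genes was 8.8%. Among the 17 probe sets the second without overlap was the dim Phka1 probe set 1422743_at, where the share over all probe sets was 8.36%.

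Wild-type replicate 1 lay at an end of the 6 arrays for each of the 9 genes by its brightest probe set, though not at the same end. It was the highest of the 6 arrays for 5 genes, Pygl, Pygb, Pygm, Gys1 and Phkg1, and the lowest for 4, Gbe1, Gyg, Ugp2 and Phka1. Other probe sets of a gene could differ: it was the highest for the Phka1 probe set 1422743_at, and inside the range for the dim Gys1 probe set. Over all genes it lay outside the range of the other 5 arrays for 58.8%, so such a place was common outside the set too. The share in the set, 9 of 9, was higher, and whether it departs from that of all genes was not tested. Its value minus the mean of the other 5 was 1.49 for Pygb, where the SD of those 5 was 0.15, and -2.32 for Gbe1, where their SD was 0.33. Across all 8 genes other than Pygl, these gaps ranged from -2.32 to 1.54, and Ugp2 had the smallest, -0.24. For Pygl the same gap was 1.49, but the SD of the other 5 was 1.19, because they hold both groups.

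The genes most alike to Pygl over the arrays were sought among 6866 genes brighter than the median probe set, by Pearson correlation over the 6 arrays. As Pygl was chosen for its group difference, the genes most alike differ between the groups too, and the correlations are given as a description. The 5 highest were Gstm2 (0.972), Olfml3 (0.971), Lars (0.968), Ginm1 (0.966) and Ggct (0.965). Gstm2 is a glutathione transferase, Olfml3 a secreted olfactomedin-domain protein, Lars the cytosolic leucyl-tRNA synthetase and Ggct the gamma-glutamylcyclotransferase of glutathione turnover. Ggct was at 10.14, 10.11 and 10.66 in the mutants and at 11.29, 11.39 and 11.43 in the wild types. Lars was at 10.44, 10.32 and 10.38 in the mutants and at 10.75, 10.78 and 10.87 in the wild types, a much smaller separation. Among the other 8 glycogen genes the correlations with Pygl turned on wild-type replicate 1. Over all 6 arrays the highest was 0.38, for Pygb, with Phka1 at -0.15 and Gyg at -0.11. Over the 5 arrays without it Phka1 was at 0.91, Gyg at 0.70, Ugp2 at 0.11 and Gbe1 at 0.04. The rest ran against Pygl, with Pygm at -0.78, Gys1 at -0.70, Pygb at -0.58 and Phkg1 at -0.57.

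The rest of the pathway was followed through 54 further genes, of which 36 were measured. They were grouped as other breakdown genes, other synthesis genes, the phosphatase and targeting proteins that act on glycogen, upstream kinases and receptors, and the entry and exit of glucose. By limma, 0 of the 36 passed an adjusted p of 0.05, and 2 had an unadjusted p under 0.05, both higher in mutants. There were 15 higher and 21 lower, with a median difference of -0.05, against -0.01 over all genes. Without wild-type replicate 1 there were 17 higher and 19 lower, 0 passed, and the lowest limma adjusted p was 0.752. That was Hk2, of the glucose entry and exit genes, which differed by -0.62 ± 0.32 (SE) with all arrays and -0.92 ± 0.25 without that array. The groups did not overlap for 4 of the 36 (11.1%), against 8.8% of all genes.

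Among other breakdown genes, 1 was higher and 3 were lower. Phkb, the regulatory beta subunit of phosphorylase kinase, was at 7.84, 8.01 and 7.91 in the mutants and at 9.002, 8.14 and 8.26 in the wild types. The groups did not overlap, but by a narrow gap, and the difference of -0.55 ± 0.27 (SE; limma adjusted p 0.999) was -0.28 without wild-type replicate 1. Gaa, the lysosomal glucosidase that degrades glycogen, differed by -0.58 ± 0.57, a value that was -0.27 when wild-type replicate 1 was left out. Phka2 and Phkg2, the liver-type alpha and gamma subunits of phosphorylase kinase, differed by -0.11 ± 0.41 and 0.01 ± 0.19, and by 0.31 and -0.05 without that array.

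Among synthesis genes, Pgm1 and Pgm2, phosphoglucomutases, differed by -0.09 ± 0.20 and 0.29 ± 0.42 (SE), the second at a dim level. These were -0.06 and -0.11 when wild-type replicate 1 was left out. Of 8 phosphatase and targeting genes 3 were higher and 5 lower. Stbd1, a protein that binds glycogen and links it to membranes, was dim, at 3.65, 3.68 and 3.79 in the mutants and at 3.12, 3.34 and 3.36 in the wild types, a difference of 0.43 ± 0.17 (limma adjusted p 0.999). The mutants lay above the wild types with no overlap, on a low level where background can weigh on the size.

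Of 12 upstream kinases and receptors 4 were higher and 8 lower. Prkag2, a gamma subunit of the AMP-activated kinase, was at 7.62, 8.11 and 8.47 in the mutants and at 9.06, 8.498 and 8.52 in the wild types, a difference of -0.63 ± 0.29 (SE; limma adjusted p 0.999), and -0.44 without wild-type replicate 1. The groups did not overlap, the highest mutant lying just under the lowest wild type. Akt2, a kinase of insulin signalling, differed by -0.31 ± 0.23.

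Of 9 genes of glucose entry and exit 6 were higher and 3 lower. Slc2a3, the neuronal-type glucose transporter GLUT3, was at 7.41, 6.99 and 7.05 in the mutants and at 5.25, 6.43 and 6.34 in the wild types. The groups did not overlap, and the difference was 1.15 ± 0.35 (SE; limma adjusted p 0.999), or 0.77 without wild-type replicate 1. Neuron and retina markers moved the same way: all 8 measured were higher in mutants, with a median difference of 1.22 and summed intensities of 2923, 2855 and 2371 in mutants and 498.4, 1443 and 1681 in wild types. With wild-type replicate 1, the lowest, left out, 6 of the 8 were higher, Nrl and Elavl4 turned lower (-0.08 and -0.06), and the median was 0.58. Elavl3, a neuronal RNA-binding protein and the member of lowest p, differed by 1.36 ± 0.24 (SE), and by 1.16 without that array. Their part in the value of Slc2a3 was not tested. Slc2a1, the main glucose transporter of the lens epithelium, which was added after its values were seen, differed by 0.0049 ± 0.17 near the top of the scale, with means of 13.32 for the mutants and 13.31 for the wild types, and by -0.03 without wild-type replicate 1.

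**Figure D3:**
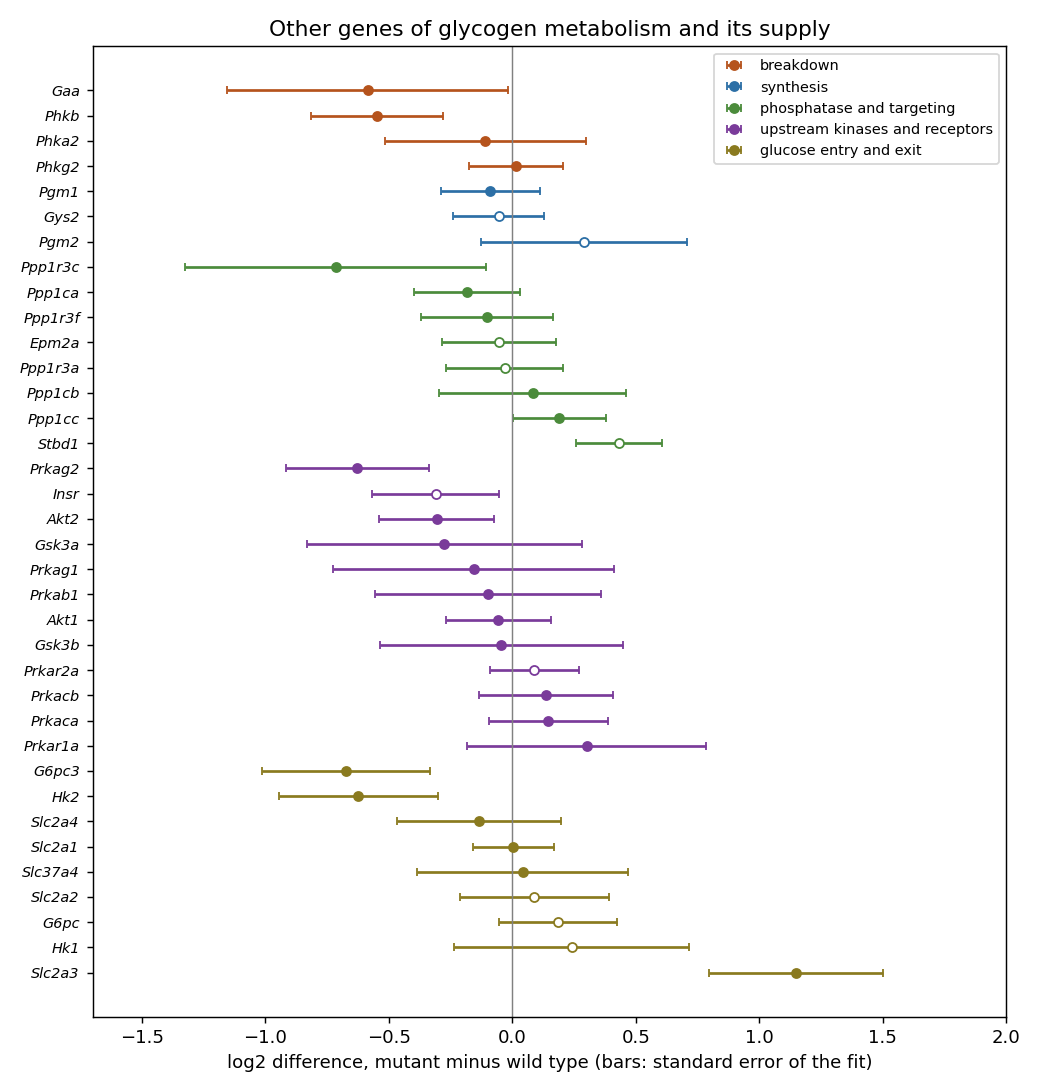
Log2 difference, mutant minus wild type, of the 36 other measured genes of glycogen metabolism and its supply, coloured by role; bars are the fitted standard error and open points are dim genes. Slc2a3 lies highest at 1.15, and none passed the limma adjusted p of 0.05.

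Markers of cells that a lens sample can hold were set beside the values of Pygl. Of the 6 measured lens epithelium markers 3 were lower and 3 higher, and the groups of the 3 lower ones did not overlap, against 8.8% of all genes. The gap was thin for the transporter Slc38a3, at 5.42, 5.02 and 5.49 in the mutants and 7.08, 5.53 and 6.46 in the wild types. It was thin too for the dim transcription factor Foxe3, at 3.98, 3.34 and 3.75 in the mutants and 4.84, 4 and 4.37 in the wild types. Cdh1, the epithelial cadherin, was at 7.55, 7.68 and 7.12 in the mutants and at 8.21, 9.14 and 8.89 in the wild types. The 3 higher markers, Pax6, Gja1 and Npnt, differed by 0.47, 0.20 and 0.0029. Without wild-type replicate 1 these were -0.07, -0.0097 and -0.20, and every marker of the list was lower. The median difference of the list was -0.35 in both fits. The summed intensity of the list was 6892 to 7598 in mutants and 4634 to 8113 in wild types, with wild-type replicate 1 lowest. That sum is mostly the bright connexin Gja1; Slc38a3 and Foxe3 had their highest value of the 6 arrays in wild-type replicate 1, as Pygl did, and Cdh1 its lowest among the wild types. Of the 7 fibre markers 6 were lower and 1 higher, with Bfsp1 of lowest p at -0.65 ± 0.22 (SE). Their median difference was -0.05, and -0.19 without wild-type replicate 1. They summed to 62653 to 66055 in mutants and 64399 to 76185 in wild types. Leukocyte markers, 9 of 10 higher in mutants, summed to 440.5, 1460 and 562.5 in mutants and 498.6, 351.9 and 357.5 in wild types, so the sums overlapped and mutant replicate 2 was far above the rest. Ptprc, the leukocyte phosphatase and the member of lowest p, differed by 1.08 ± 0.36 (SE). Glia, endothelium, pigment cell, stroma and red cell markers had median differences of 0.35, -0.08, 0.69, 0.97 and 0.33. Leaving out wild-type replicate 1 gave 0.02, -0.37, 0.71, 0.82 and 0.86. In the same order, 4, 3, 4, 6 and 2 of their measured markers were higher and 2, 3, 0, 0 and 2 lower with all arrays. The members of lowest p of these lists, Aldoc, Pecam1, Pmel, Col6a1 and Epb42, differed by -0.88, -0.49, 0.74, 1.27 and -0.19. Aldoc and Epb42 thus went against the median of their lists. Groups without overlap were not particular to the epithelial list. Mutants were higher with no overlap for 3 of 10 leukocyte and 4 of 8 neuron and retina markers. The same held for 2 of 4 pigment cell, 2 of 6 stroma and 1 of 6 glia markers. Mutants were lower with no overlap for 1 of 7 fibre and 1 of 6 glia markers. The part of the epithelial markers in the value of Pygl was not tested.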

How the data were processed

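Per the submitters' processing notes, RMA was used, with no version or settings given. The deposited values are probe set intensities on a linear scale, 1 column per array; the steps from RMA to that scale, and the genome build, are not given in the sources used here. RMA can compress differences of dim probe sets. Deposited intensities were turned to log2 with no pseudocount, and 64 array controls were left out. Groups came from the labels, and 0 columns were left out. Gene symbols came from GEO's platform annotation: 20380 had 1 symbol, 691 several and 1555 none, and for 20351 of the 20380 the Entrez ID was found in RefSeq (GRCm38.p6), which changed 0 symbols. Arrays were checked for duplicates, and no pair shared over 0.186% of its values.

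R 4.3.3 and limma 3.58.1 were used (lmFit, eBayes, no covariate, two-sided, Benjamini-Hochberg over 22626 probe sets, threshold 0.05). The fit was tested on simulated data. The number of arrays limits the precision. The members and lists were chosen with earlier results of these data known. Named genes were all members and the 5 most alike to Pygl. In each other glycogen list they were those with an unadjusted p under 0.05, or else the 2 of lowest p. Of a marker list they were the member of lowest p and any defining marker. Phka2, Phkg2, Slc2a1, Hk2, Slc38a3, Foxe3, Pax6, Gja1, Npnt, Nrl and Elavl4 were added after their values were seen. Each of these was tried in turn: a replicate block, centring arrays on their medians, quantile normalisation, dropping dim probe sets, array weights, a trended prior, a pseudocount of 16, dropping each array, and averaging the probe sets of a gene.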

Additional observations from a re-analysis of the deposited data

How the results depend on the processing

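No probe set (0) was called by limma with all arrays, where 742 had an unadjusted p under 0.05, nor under any alternative except array weights, which called 7 probe sets. They include 1 of the 9 glycogen genes, Pygl, whose own values chose the set, so that this call is no support. The weights were 0.22, 0.57 and 5.65 for wild-type replicates 1, 2 and 3, so that the wild-type mean rested mostly on replicate 3. With the replicate number as a block 0 probe sets and 0 members were called and the difference of Pygl was -2.22. Deviations of same-numbered arrays from their group means had correlations of -0.07, -0.26 and -0.16. With 3 arrays a group, wild-type replicate 1 among them, these cannot tell whether the numbers pair the samples. The difference of Pygl was -1.83 with a pseudocount of 16. With array weights the sign turned for Pygb (0.10), Gys1 (0.32), Gyg (-0.18), Ugp2 (-0.13), Phka1 (-0.45) and Phkg1 (0.10). The sign of Gyg turned with median centring (-0.0042) and that of Phka1 with the mean of its probe sets (-0.10). Leaving out each array gave ranges of -0.66 to 0.13 for Pygb, -0.15 to 0.59 for Pygm, -0.49 to 0.60 for Gys1, -0.0154 to 1.26 for Gbe1, -0.35 to 0.34 for Gyg, -4e-04 to 0.20 for Ugp2, -0.62 to 0.54 for Phka1 and -0.42 to 0.10 for Phkg1. For 7 of these 8, Pygm excepted, the sign turned without wild-type replicate 1. The cause of these turns was not tested. Phkg1 is dim and was not in the fit without dim probe sets.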
